A study of Mus musculus with 12 samples.

Results

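Accessible chromatin was examined at 9 genes of the JAK-STAT pathway downstream of the thrombopoietin receptor: Jak2, Stat3, Stat5a, Stat5b, Socs1, Socs2, Socs3, Sh2b3 and Cish. The receptor's own gene was not analysed here. Regions were built from ATAC-seq summits, the single bases where a peak of transposase insertions was highest. Every summit scored 3 or higher, equal to a peak-caller q-value no larger than 0.001, was widened by 250 bp on each side, and overlapping windows were merged over all libraries. Regions overlapping a gene's GENCODE body (mm10) or the 10 kb on either side of it were assigned to that gene, and this gave 42 of the 71006 regions of the catalogue. The assignment rests on distance alone. Stat5a, Stat5b and Stat3 neighbour each other on chromosome 11, so 4 of the 42 regions belonged to a pair of these genes.

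Thrombopoietin is the main cytokine that maintains hematopoietic stem cells (HSCs) and drives platelet production. Its receptor has no kinase activity and signals through JAK2, which phosphorylates STAT3, STAT5A and STAT5B. Phosphorylated STATs form dimers, enter the nucleus and bind a short palindromic DNA element. The genes Cish, Socs1, Socs2 and Socs3 are induced by STATs and encode SH2-domain proteins that dampen cytokine signalling, whereas Sh2b3 encodes LNK, an adaptor that restrains JAK2 and the expansion of HSCs.

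HSCs had been isolated from the bone marrow of C57BL/6 mice in 4 groups of 3 libraries: Young WT and Young Mlkl-/- at 3 months of age, and Aged WT and Aged Mlkl-/- at 18 months. Mlkl encodes the pseudokinase that executes necroptosis, and Mlkl-/- animals lack it in all tissues. No mouse had been treated according to the labels. Per the study's methods each library held HSCs pooled from several mice, young pools drew on more mice than aged pools, and libraries were prepared on the same day. Pool size and age therefore cannot be told apart. The start of Mlkl held a summit in 3 of 3 lists of each group, which does not test the genotype labels because the start of a gene may stay accessible after its disruption. Starts of the HSC genes Kit, Cd34, Meis1 and Hlf were called in 12 of 12 lists and that of Procr in 9, whereas no summit lay within 1 kb of the annotated 5′ end of Mecom or Slamf1. Among genes of other blood and vessel cells, the starts of Cd79a, Cd3e, Cd8a, Ly6g, Elane and Cdh5 were in 0 lists, that of Pecam1 in 2, and those of the megakaryocyte genes Pf4 and Itga2b in 12. In pooled cells a loss of accessibility in every cell and a loss of the cells that carry it cannot be told apart.

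The lists held between 35714 and 61495 summits with a score of at least 3, and aged lists tended to be the longer ones. Sequencing depth was unknown because no read counts were used. Each list was therefore reduced to its 35714 strongest summits, and 2 measures were taken for each region. The list percentile places a region's strongest summit within its own equal-length list, from 0 for the weakest to 100 for the strongest. The normal score turns the rank into a position on a normal curve, and regions not called shared a floor between −0.824 and −0.745. A change is a difference in mean normal score (aged minus young, or Mlkl-/- minus WT), and thus describes relative rank rather than the amount of open chromatin. Of the 42 regions, 27 were called in at least 3 equal-length lists and were tested with limma together with all 37880 such regions.

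The sequences below were read from the mm10 reference and are shown because they lie at the regions on which the results turn. Capitals mark matches of TTCNNNGAA, the palindromic STAT element, whose letters read the same on both strands. The 3′ flank of Cish is shown first, since it was the only member region past the threshold for age. It is followed by the tandem elements at the starts of Cish and Socs2 and by the element beside the start of Socs3.
Cish 3′ flank, chr9:107306190-107306489, plus strand: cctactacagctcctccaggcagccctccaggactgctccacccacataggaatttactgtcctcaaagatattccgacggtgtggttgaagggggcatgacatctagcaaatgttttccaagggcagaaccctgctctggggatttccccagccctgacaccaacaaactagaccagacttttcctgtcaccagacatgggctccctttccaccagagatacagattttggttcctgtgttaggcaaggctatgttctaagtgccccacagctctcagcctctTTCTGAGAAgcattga
Cish start, first pair, chr9:107296654-107296683, plus strand: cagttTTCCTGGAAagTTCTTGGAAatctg
Cish start, second pair, chr9:107296762-107296791, plus strand: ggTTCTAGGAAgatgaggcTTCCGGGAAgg
Socs2 start, chr10:95416899-95416928, plus strand: ccgctTTCCAGGAActTTCCAGGAAtccgc
Socs3 start, chr11:117969229-117969258, plus strand: cgccccccgaTTCCTGGAActgcccggccg
The Socs3 3′ flank, the Socs1 3′ flank and the Jak2 intron are shown as well, for comparison with the Cish 3′ flank. The windows at Socs3 and Socs1 are centred on summits whose age changes, were −0.82 and 0.01, and the window in Jak2 carries its match toward one edge.
Socs3 3′ flank, chr11:117965670-117965870, plus strand: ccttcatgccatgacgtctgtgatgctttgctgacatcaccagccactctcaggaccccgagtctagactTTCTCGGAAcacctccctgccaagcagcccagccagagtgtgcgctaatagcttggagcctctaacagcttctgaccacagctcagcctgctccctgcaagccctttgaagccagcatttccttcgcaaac
Socs1 3′ flank, chr16:10772216-10772416, plus strand: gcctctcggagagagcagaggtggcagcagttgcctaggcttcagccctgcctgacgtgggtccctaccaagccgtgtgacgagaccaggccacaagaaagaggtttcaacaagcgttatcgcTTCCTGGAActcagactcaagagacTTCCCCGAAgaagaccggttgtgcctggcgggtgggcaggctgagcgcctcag
Jak2 intron, chr19:29253729-29254028, plus strand: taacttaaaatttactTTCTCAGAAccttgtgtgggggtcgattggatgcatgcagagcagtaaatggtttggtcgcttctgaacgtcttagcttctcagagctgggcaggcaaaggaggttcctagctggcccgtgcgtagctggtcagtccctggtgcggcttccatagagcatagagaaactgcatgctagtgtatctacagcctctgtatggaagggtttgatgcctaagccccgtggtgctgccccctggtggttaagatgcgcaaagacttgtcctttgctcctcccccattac

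The first question was how open these loci were in HSCs, whatever the group. Of the 42 regions, 15 (35.7%) held a summit in all 12 lists of score 3 or more, against 28.6% of the whole catalogue. A further 4 regions (9.52%) appeared in 1 list only, against 17% of the catalogue. The number of member regions called in an equal-length list ranged from 18 (42.9%, Aged WT 3) to 27 (64.3%, Young WT 3), against 40.0% to 43.5% of the catalogue. By annotation 20 summits lay in introns, 14 between genes, 5 in UTRs and 3 in other exons. Summits within 1 kb of a protein-coding start made up 35.7% of the member regions and 21.7% of the catalogue.

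**Figure D1:**
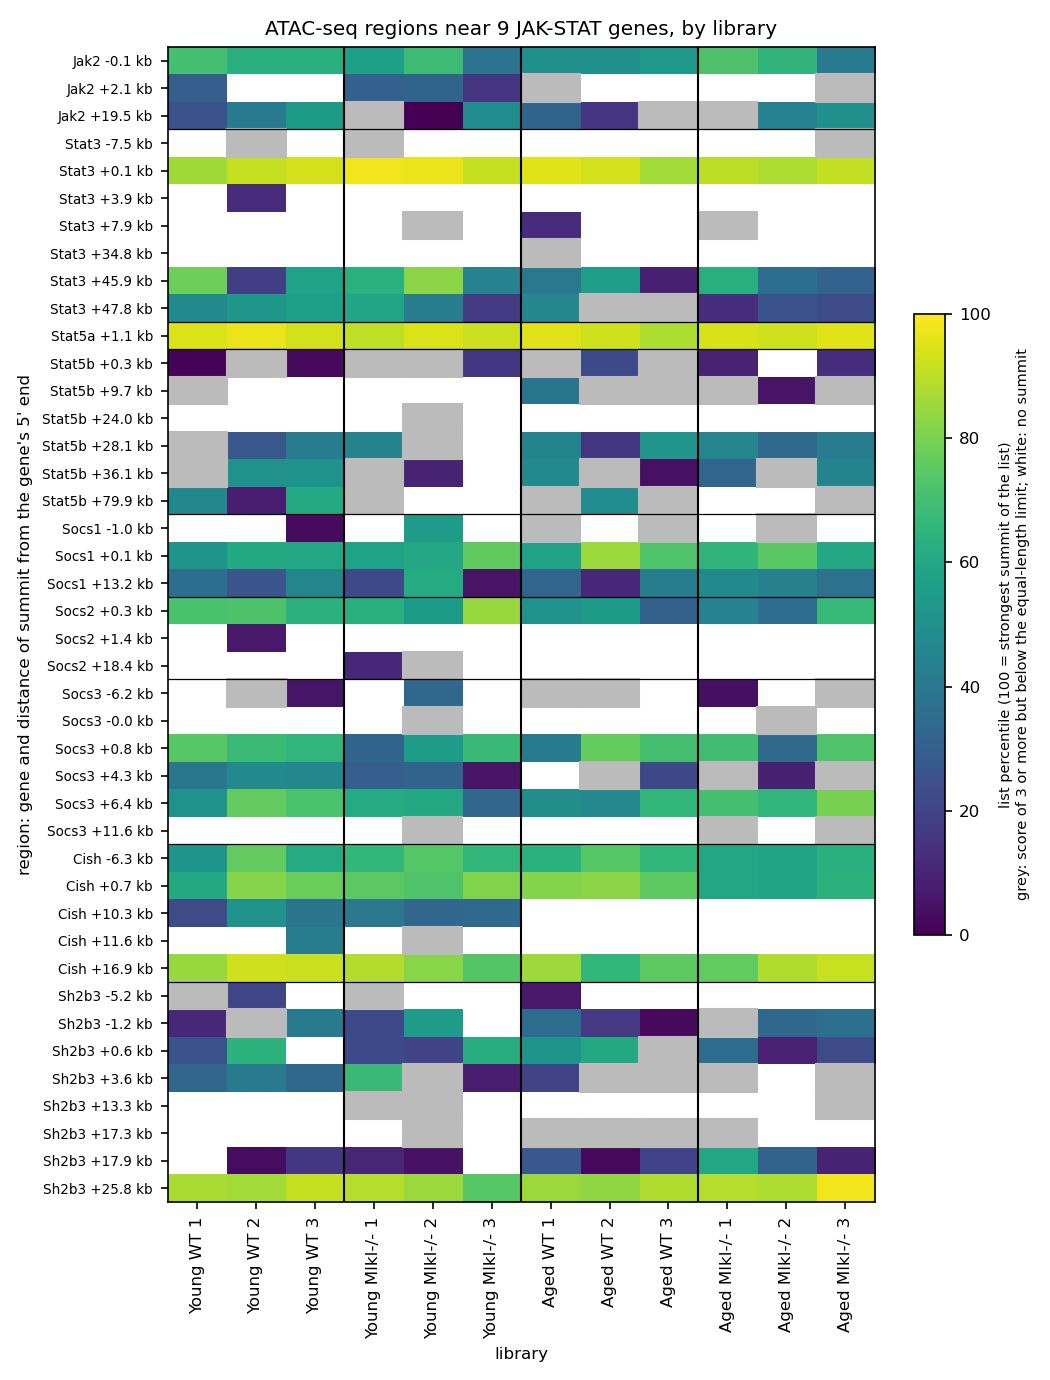
The map shows the 42 regions (rows, named by gene and by the distance in kb of the summit from the gene's 5′ end, negative upstream) in the 12 libraries (columns). Colour is the list percentile in the equal-length list, grey marks a summit with a score of at least 3 that was below the equal-length limit, and white marks no such summit. The starts of Stat3 and Stat5a are bright in 12 of 12 columns, and the Cish row at +10.3 kb is filled in the 6 young columns and white in the 6 aged ones.

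Among the STAT genes, which encode the transcription factors of the pathway, Stat5a and Stat3 had the strongest starts. The region at the Stat5a start (chr11:100860142-100860698) had list percentiles from 87.7 to 97.2 with a median of 93.6 over 12 libraries. The Stat3 start (chr11:100939188-100940073) ranged from 85.9 to 97.7 with a median of 91.2. These ranges overlapped almost completely, so the order of the pair is within their spread. Stat5b differed from both: its start (chr11:100850133-100850962) was called in 6 equal-length lists only, with percentiles from 1.1 to 22.4. With scores of at least 3 it was present in 11 of 12 lists, so the Stat5b start was weak and not missing. All values of the Stat5b start lay below all values of the Stat5a start, although the genes lie side by side in opposite orientation.

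The starts of the feedback genes lay between these extremes. The Cish start (chr9:107296186-107297071), where 4 STAT elements were found, had percentiles from 58.5 to 82.6 with a median of 74.9. Socs1 (chr16:10784906-10786224) ranged from 51.7 to 84.9 with a median of 60.6, and Socs2 (chr10:95416425-95417705) from 30.5 to 84.7 with a median of 58.8. The Jak2 start (chr19:29250996-29252400) had a median of 60.0 and a range from 38.2 to 72.0. Socs1, Jak2 and Socs2 overlapped along most of their ranges and could not be ordered. At Socs3 the rule chose a region at the GENCODE 5′ end that appeared in only 2 of 12 lists. The neighbouring region (chr11:117968853-117969688), with its summit 101 bp from an annotated Socs3 start and within an intron of the longest Socs3 model, was called in 12 of 12 lists with percentiles from 32.4 to 76.5 and a median of 68.1. The Sh2b3 start (chr5:121836071-121837576) was the most variable, called in 10 equal-length lists with percentiles from 9.3 to 64.2.

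Some of the strongest member regions lay away from the starts of the member genes. A region 16.9 kb downstream of the Cish 5′ end (chr9:107312673-107313515), intergenic, ranged from 66.4 to 92.8 with a median of 85.0 over 12 libraries. A region 25.8 kb from the Sh2b3 5′ end and 3.68 kb past its 3′ end (chr5:121811538-121812568) ranged from 74.0 to 97.9 with a median of 87.5. That summit lies in an exon of the neighbouring gene Atxn2. A weaker region upstream of Cish (chr9:107288643-107290178) ranged from 51.7 to 75.9 with a median of 65.0. It lies at the start of Mapkapk3, which encodes a kinase of the p38 pathway. Neither the Atxn2 nor the Mapkapk3 region can be assigned to Sh2b3 or Cish other than by distance.

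Next, young and aged libraries were compared over both genotypes. One of the 27 tested member regions (3.7%) passed an adjusted p of 0.01, and it was lower with age. Over all tested regions 3.27% passed, 1.25% lower and 2.02% higher, so the share of the member regions was close to that of the whole catalogue. The share over all regions was 2.14% without Young WT 2, 2.21% without Aged WT 1, 2.08% without Aged Mlkl-/- 1 and 2.16% without Aged Mlkl-/- 2. At an unadjusted p under 0.05 there were 7 member regions (25.9%, 6 of them lower) against 22.6% of all regions, of which 11.1% were lower. The change was below 0 in 17 member regions (63%) and in 51.1% of all regions. The median change was −0.10 over the member regions and −0.01 over all regions.

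The region past the threshold lies in the 3′ flank of Cish, the STAT5 target that encodes a feedback inhibitor of cytokine receptors. It spans chr9:107306040-107306614 (mm10), between genes, 10.26 kb from the Cish 5′ end and 3.51 kb past its 3′ end. Its list percentiles were 23.2, 51.3 and 38.6 in Young WT and 39.6, 33.2 and 34.0 in Young Mlkl-/-. It was called in none of the 6 aged equal-length lists. Young and aged libraries therefore did not overlap at this region, whichever the genotype.

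The same summits were also read in the lists before their reduction to equal length, which describes the region further and is no separate test. There the summit had scores of 7.90, 12.53 and 8.08 in Young WT and 10.96, 11.96 and 6.92 in Young Mlkl-/-. No aged list held a summit with a score of at least 3 there, and among all deposited summits 1 aged library (Aged Mlkl-/- 3) held one, with a score of 2.33. The 6 young summits fell between 107306290 and 107306364, so separate libraries placed the peak at nearly the same bases. A summit in 6 of 6 young and 0 of 6 aged lists was seen in 1 of 42 member regions (2.38%) and in 39 of 71006 regions of the catalogue (0.0549%). The 1 member is this region, and the pattern was counted after its values were seen. The member share could therefore not be 0, and the shares do not measure an enrichment. The rank change was −1.13 ± 0.22 (SE, limma adjusted p = 0.00196), and member regions whose 6 young and 6 aged values did not overlap numbered 1 of 27 (3.7%), against 3.88% of all tested regions.

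The change at the Cish 3′ flank was nearly equal in both genotypes. It was −1.14 ± 0.31 in WT (limma adjusted p = 0.0521) and −1.12 ± 0.31 in Mlkl-/- (limma adjusted p = 0.061), so neither passed the threshold with 3 libraries against 3. Mean normal scores were 0.36 ± 0.20 for Young WT against −0.78 ± 0.04 for Aged WT, and the pair of Mlkl-/- groups gave 0.31 ± 0.07 when young and −0.80 ± 0.01 when aged (SD, n = 3). Both aged means are those of a region that was not called. Each change is thus the young mean against the floor, so the genotypes could differ there only when young. The small aged SDs are those of the floor and do not measure a spread between pools. The SE and p of these changes draw on them. With list length as a covariate the age change was −1.08 (limma adjusted p = 0.0523), and in the 9 libraries sharing an unexplained tag in their file names it was −1.14 (limma adjusted p = 0.0155), so the size held and the call did not. Aged lists tended to be longer, so list length and age are partly confounded in this fit. Over all tested regions the share past the threshold was 0.454% with the covariate and 1.29% in the tagged libraries.

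**Figure D2:**
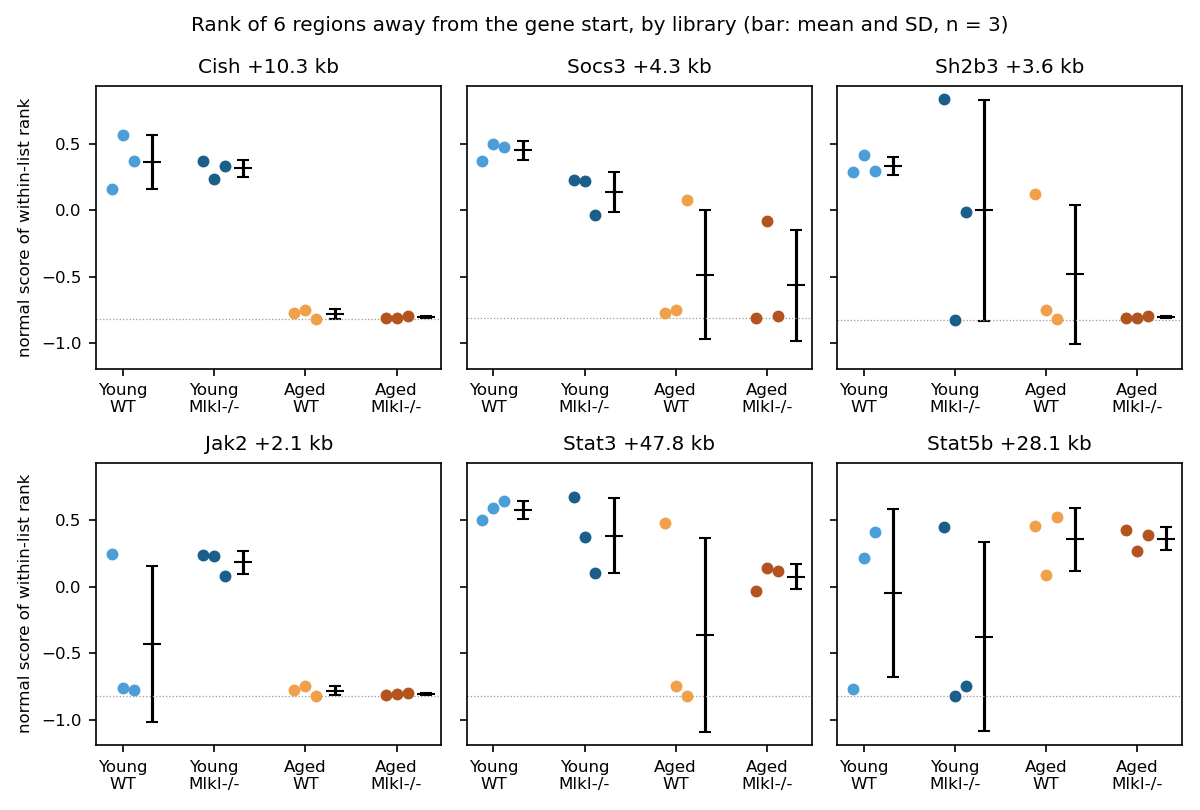
Normal scores of within-list rank (vertical axis) for 6 regions away from the gene start, named by gene and distance in kb from the 5′ end, with 1 point per library and, beside the points, the group mean and SD (n = 3). The dotted line marks the lowest floor shared by regions that were not called. At Cish +10.3 kb the 6 young points lie above the floor and the 6 aged points on it, whereas in the other 5 panels points of the ages overlap.

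The rest of the Cish locus did not share this pattern. At the Cish start the age change was −0.10 ± 0.14, at the Mapkapk3 start −0.05 ± 0.14 and at the distal region 16.9 kb from the 5′ end −0.18 ± 0.14 (SE), and none passed the threshold. The start was called in 12 of 12 lists, with percentiles of 60.6 to 81.9 in the 6 young and 58.5 to 82.6 in the 6 aged libraries. One further region, 11.59 kb from the Cish 5′ end (chr9:107307343-107307869), held a summit in 2 young lists and in 0 aged lists, too few to be tested.

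Of the other inhibitors, Socs3, which restrains signalling through gp130 cytokine receptors, came closest. The Socs3 3′ flank (chr11:117965475-117966058), 309 bp past the gene's 3′ end, had list percentiles of 39.2, 47.3 and 46.4 in Young WT and 29.8, 31.9 and 5.4 in Young Mlkl-/-. It was called in 1 Aged WT library at 21.6 and in 1 Aged Mlkl-/- library at 8.7. Aged values were mostly at the floor but overlapped the lowest young library. The change was −0.82 ± 0.24 (SE, limma adjusted p = 0.0385), and with scores of at least 3 the summit was still present in 5 of 6 aged lists. The regions at the Socs3 start and 2.43 kb past its 3′ end had age changes of 0.00 ± 0.17 and 0.06 ± 0.16. The difference between the flank and these neighbours was not tested.

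At Socs2, whose product limits growth hormone and cytokine signalling, the start with its tandem STAT elements was called in every library. Its young percentiles were 71.2, 72.2 and 64.2 for WT and 63.0, 54.3 and 84.7 for Mlkl-/-. Its aged percentiles were 51.3, 54.6 and 30.5 for WT and 44.5, 35.9 and 67.0 for Mlkl-/-. Most young values were higher than most aged values, with overlap. The change of −0.39 ± 0.17 did not pass the threshold (limma adjusted p = 0.168). Socs1, an inhibitor of JAK kinases, had changes of 0.17 ± 0.15 at its start and 0.01 ± 0.20 at its 3′ flank (chr16:10772059-10772717), and both regions were called in 12 of 12 equal-length lists.

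Sh2b3 and Jak2 each had an intronic region that was called mainly in young libraries. The Sh2b3 region (chr5:121833352-121834293), 3.62 kb from the 5′ end, had percentiles of 33.2, 41.4 and 33.5 in Young WT and 67.8 and 7.5 in 2 of the 3 Young Mlkl-/- libraries, and it was called in 1 aged library (Aged WT 1) at 20.7. Its change was −0.81 ± 0.27 (SE, limma adjusted p = 0.0678). The Jak2 region (chr19:29253728-29254304), 2.15 kb from the 5′ end, was called at 30.4 in Young WT 1 and at 30.5, 32.4 and 15.1 in Young Mlkl-/-, and in none of the 6 aged equal-length lists. Because 2 Young WT libraries lacked it too, young and aged libraries overlapped, and the change of −0.67 ± 0.22 did not pass (limma adjusted p = 0.0606). With scores of at least 3 the Sh2b3 summit was found in 6 young and 5 aged lists and the Jak2 summit in 4 young and 2 aged lists. The starts of the pair had age changes of −0.06 ± 0.29 (Sh2b3) and −0.10 ± 0.16 (Jak2), within their errors.

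Among the STAT genes the starts of Stat3, Stat5a and Stat5b had age changes of −0.19 ± 0.14, −0.07 ± 0.13 and 0.03 ± 0.26 (SE). An intronic region of Stat3 that also lies in the 3′ flank of Stat5a (chr11:100891502-100892204) had percentiles of 48.0, 53.0 and 56.7 in Young WT and 59.1, 42.2 and 16.8 in Young Mlkl-/-. At 18 months it was called at 46.4 in 1 of 3 WT libraries and at 13.1, 25.3 and 22.7 in Mlkl-/-. The ages overlapped, and the change was −0.62 ± 0.24 (limma adjusted p = 0.113). The only member region with an unadjusted p under 0.05 and a higher aged value was intronic in Stat5b (chr11:100822286-100822866), 65 bp from an annotated internal start of that gene. Equal-length calls numbered 3 among the 6 young and 6 among the 6 aged libraries, with aged percentiles from 16.2 to 52.0, and its change of 0.57 ± 0.27 did not pass after adjustment (limma adjusted p = 0.203).

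**Figure D3:**
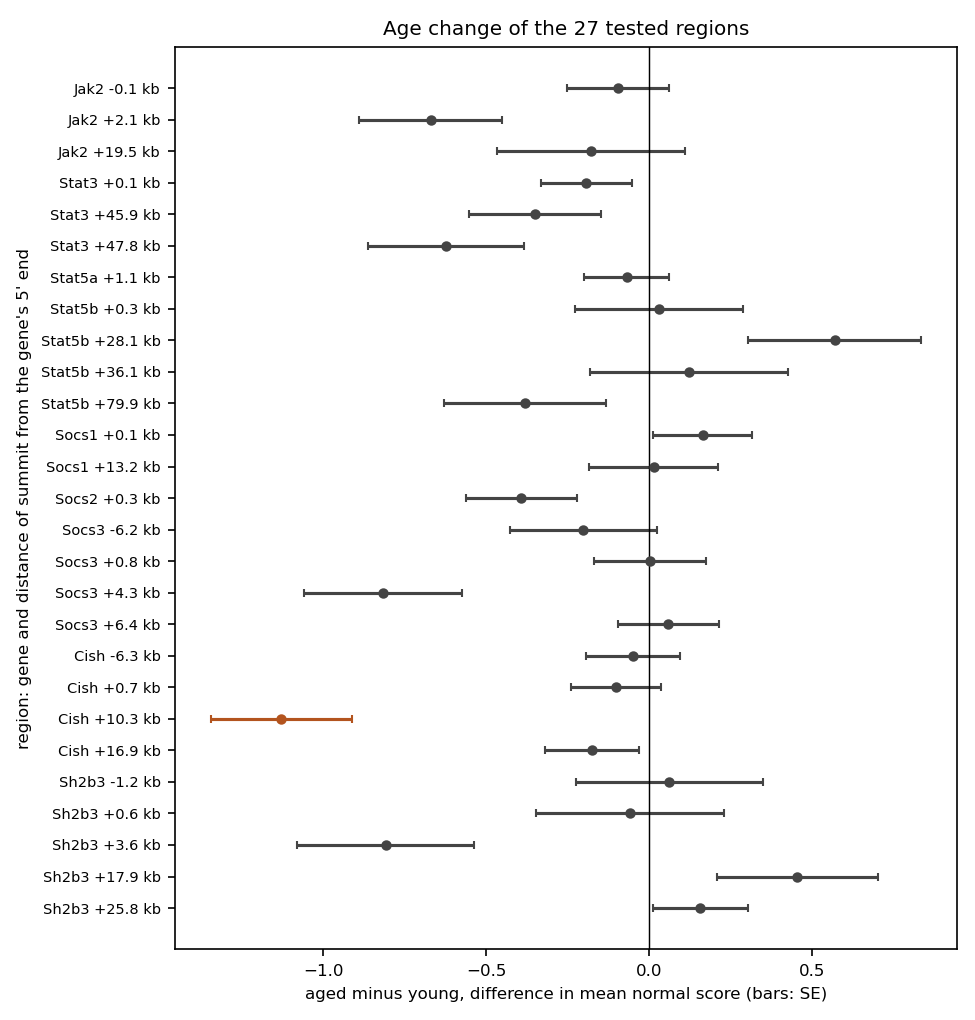
Age change (aged minus young, difference in mean normal score, horizontal axis) of the 27 tested regions, grouped by gene and named by the distance in kb from the 5′ end. Points are estimates over both genotypes and bars are standard errors; the coloured point, Cish +10.3 kb at −1.13, is the region with an adjusted p under 0.01. The regions that the text names as starts of the member genes lie between −0.39 (Socs2) and 0.17 (Socs1). Stat5b +28.1 kb, beside an internal start of that gene, lies outside this range at 0.57. The 4 next most negative estimates after Cish +10.3 kb belong to Socs3, Sh2b3, Jak2 and Stat3.

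Within each genotype alone, 0 of 27 member regions passed an adjusted p of 0.01 in limma, both in WT and in Mlkl-/-, where 0.293% and 0.325% of all tested regions passed. At an unadjusted p under 0.05 there were 6 member regions in WT (22.2%) and 5 in Mlkl-/- (18.5%), against 14.9% and 14.8% of all tested regions. The lowest limma adjusted p among the members was 0.0521 in WT and 0.061 in Mlkl-/-, both at the Cish 3′ flank. The difference in age change between the genotypes passed in 0 of 27 member regions and in 0% of all tested regions (1 member, 3.7%, at an unadjusted p under 0.05, against 4.7% of all). That member was the distal Cish region at 16.9 kb, with an age change of −0.48 ± 0.20 in WT and 0.13 ± 0.20 in Mlkl-/- (limma adjusted p = 0.979).

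The genotypes were then compared at each age. None of the member regions passed, whether at 3 months, 18 months or with the ages combined, and neither did any region of the catalogue (0 of 37880, or 0%, in each comparison). At an unadjusted p under 0.05 each of these comparisons had 1 member region of 27 (3.7%), against 5.41% of all regions in young mice, 5.24% in aged mice and 6.3% with the ages combined. At the Cish 3′ flank the genotypes differed by −0.04 ± 0.22. Both aged groups were at the floor there, so only the young groups could differ. The region with the lowest unadjusted p lies 9.89 kb past the 3′ end of Stat5b (chr11:100770536-100771279), at the start of the neighbouring gene Ghdc, and is named here after its values were seen. With scores of at least 3 it was present in 3 of 3 Young WT and 3 of 3 Aged WT lists, and in 1 of 3 lists of each Mlkl-/- group. Its equal-length percentiles were 46.8, 8.0 and 61.0 in Young WT and 48.8 in 1 Aged WT library, and it was called in none of the 6 Mlkl-/- libraries. The difference was −1.17 ± 0.35 at 3 months (limma adjusted p = 0.617), with the 3 Young Mlkl-/- libraries at the floor and the 3 Young WT libraries above it. It was −0.81 ± 0.25 over both ages (limma adjusted p = 0.776). With the ages combined, WT and Mlkl-/- libraries overlapped because 2 Aged WT libraries were at the floor. At the Cish start the genotypes differed by −0.44 at 18 months, with percentiles of 75.0 to 82.6 in Aged WT and 58.5 to 64.2 in Aged Mlkl-/- (limma adjusted p = 0.894).

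The pathway was widened to 29 other genes: the remaining JAKs and STATs, further SOCS and PIAS proteins, phosphatases, adaptors and targets. They had 157 regions, of which 101 were tested. For age 3 of 101 (2.97%) passed, 0 higher and 3 lower, against 3.27% of all tested regions. In the other 6 comparisons 0 of 101 passed in limma, and at an unadjusted p under 0.05 there were 16 for age in WT, 12 for age in Mlkl-/- and between 2 and 8 in the rest. The shares of all tested regions at that p were 14.9%, 14.8% and between 4.7% and 6.3%. The age change was below 0 in 57 of the 101 (56.4%). The 3 regions lie in an intron of Mcl1, an anti-apoptotic gene that HSCs need (chr3:95659295-95659855), in an intron of Jak1, the kinase of gp130 receptors (chr4:101172653-101173223), and beside Sh2b2, a relative of Sh2b3 (chr5:136217818-136218405). Their changes were −1.20 ± 0.24, −0.88 ± 0.20 and −1.07 ± 0.23, with limma adjusted p of 0.00292, 0.00696 and 0.00504. With scores of at least 3, the Mcl1 region was present in 6 young and 2 aged lists, the Jak1 region in 6 and 6, and the Sh2b2 region in 6 and 3. At that score none of these summits was missing from every aged list, as it was at the Cish 3′ flank. In the equal-length lists the Mcl1 region was called in 6 young and 1 aged, and the Jak1 region in 6 and 5. The Sh2b2 region was called there in 6 and 0, the same pattern as at the Cish 3′ flank.

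Lastly, the DNA under the summits was searched for the letters TTCNNNGAA on both strands. A match within 100 bp of the highest summit was present in 8 of 42 member regions (19.0%) and in 5.6% of the 71006 regions of the catalogue. Within 50 bp the shares were 14.3% and 2.8%. For comparison, the ETS letters GGAAGT were found within 100 bp in 23.8% of member regions and 27.2% of the catalogue, and the GATA letters GATAAG in 4.8% and 8.1%. A STAT match can overlap an ETS match, as one did at the Socs1 3′ flank. These shares are descriptions and were not tested, since the members were chosen as STAT pathway genes.

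Of the 8 regions, 7 belong to Cish and the Socs genes, 1 to Sh2b3, and none to Jak2 or the STAT genes. They comprise the Cish start with 4 matches, the distal Cish region, the Socs2 start with 2, the Socs3 start, its 3′ flank and a region 6.22 kb upstream of it, the Socs1 3′ flank with 2, and a region 1.17 kb upstream of Sh2b3. As printed above, the Cish and Socs2 starts hold their matches as close pairs. None of the 8 passed the threshold for age, and their age changes ran from −0.82 at the Socs3 3′ flank to 0.06 upstream of Sh2b3. In the Cish 3′ flank itself the single match lies 188 bp from the highest summit, and in the Jak2 intron 229 bp, so neither counts among them. In the RefSeq promoter table (GRCm38.p6) 8 of the 9 genes were matched, with 10 promoters. The letters occurred in the 250 bases before the start in 1 of the 10, that of Socs3, and in 7.0% of 32851 promoters. The matches at the Cish start lie at or past its RefSeq start and are thus outside these windows.

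**Figure D4:**
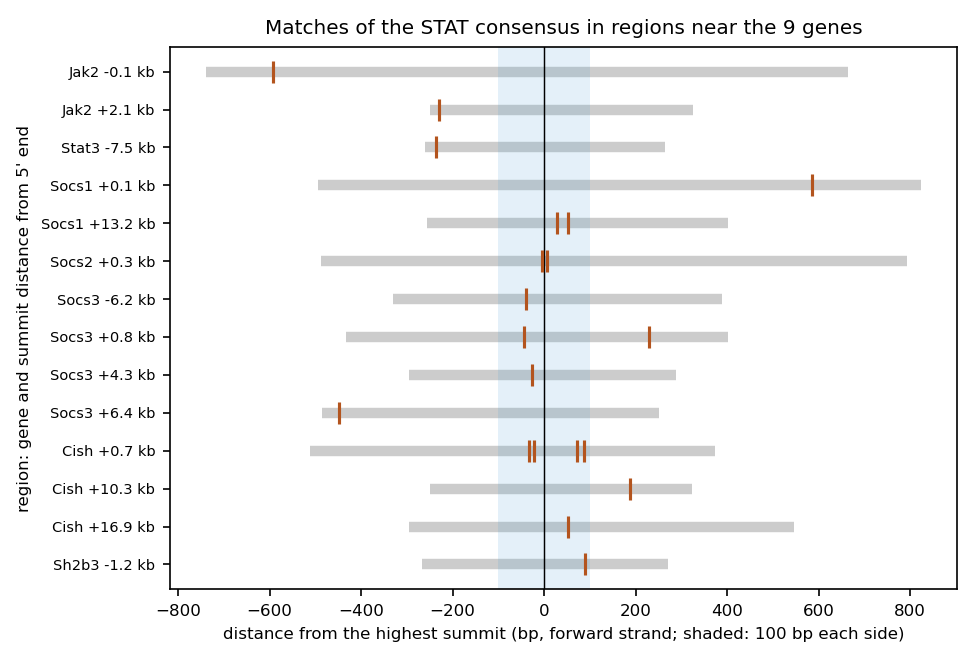
Positions of TTCNNNGAA matches (vertical ticks) relative to the highest summit (0 on the horizontal axis, in bp along the forward strand) in the member regions that hold at least 1 match. Grey bars show the extent of each region and shading marks 100 bp on each side of the summit. The Cish start carries 4 matches within the shaded part, and the match of the Cish region at +10.3 kb lies 188 bp from its summit.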

How the data were processed

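ATAC-seq had been performed on 12 HSC libraries. Per the labels and the study's methods, the authors mapped reads to mm10 with Bowtie2 2.5.3 and called peaks in each library separately with MACS2 2.2.7.1, so replicates were not pooled. The deposited scores are the −log10 of the q-value of each summit, as given by the authors' peak caller, and the lists start at a score of about 2.00, below the cutoff stated in the methods. The deposited values hold no counts, so the edgeR comparison of the study could not be repeated, the depth is unknown and no counting interval is given.

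Summits with a score of at least 3 were merged into a catalogue as described. Ranks were taken over the 52282 regions called in at least 1 equal-length list (35714 summits each, ties broken with a fixed seed), turned into normal scores and fitted in R 4.3.3 by limma 3.58.1 (functions lmFit and contrasts.fit, then eBayes with its trend option) in 1 model of 4 groups with 7 contrasts. P-values were adjusted by Benjamini-Hochberg over all 37880 tested regions, at a threshold of 0.01. Gene models were GENCODE vM21 and genome sequence was GRCm38.p6 (mm10), in which 0 summits lay past a chromosome end. The steps were tested on simulated data. Regions named were, for each gene, the start region, the region with the largest age change and those called in all lists, plus any past the threshold. Genes, lists and motifs were chosen with earlier results of these data known. Libraries are pools of mice, and p-values measure the spread between pools. Where a group was not called, its values sit at the floor and hold little of that spread. Alternatives were other score minimums, list lengths, windows, flanks, minimums of lists, percentile ranks, separate fits, a replicate block, list length as a covariate, the tagged libraries and each library left out. Python 3.11.15 with numpy 2.4.6, scipy 1.17.1 and pandas 2.3.3 was used. Some marker genes are not reported here.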

Additional observations from a re-analysis of the deposited data

How the results depend on the processing

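The Cish 3′ flank was the only member region past the threshold for age (1 of 27). The count was 2 at an adjusted p under 0.05, when the Socs3 3′ flank joined it. It was 0 with a flank of 2 kb, which leaves the Cish region out, 0 with list length as a covariate (limma adjusted p = 0.0523) and 0 in the 9 tagged libraries (limma adjusted p = 0.0155). It was 1 under the other alternatives that gave a value and without any single library. Over the alternatives in normal scores the Cish change ran from −1.51 to −0.97, and percentile ranks gave −41.673 percentile points. With percentile ranks included, its limma adjusted p ran from 7.19e-05 to 0.0523. Fitting the compared groups separately gives no value over both genotypes. The other 6 comparisons gave 0 member regions under each alternative that gave a value, and separate fits gave none for genotype over both ages or for the difference in age change. Over all regions, age calls numbered 1240, but 172 with list length as a covariate, 443 in the tagged libraries, 2030 in lists of unequal length, and between 765 and 1171 with 1 library left out.

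Deviations of same-numbered libraries correlated between −0.32 and 0.136, with 1 of 18 pairs over 0.1. Those of differently numbered libraries correlated between −0.188 and 0.325, with 6 of 36 pairs over 0.1. Same-numbered libraries were thus no more alike than the others, and pairing was not tested further. With the replicate block the count for age was 1 and the Cish change −1.13 (limma adjusted p = 0.00477).

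Changes near 0 altered sign under some settings, and none of these passed the threshold. For age, with list length as a covariate, they were −0.04 (Sh2b3 3′ side), 0.07 (Sh2b3 start), 0.003 (Cish start), −0.083 (Socs3 2.43 kb past the 3′ end), −0.048 (Socs3 start) and −0.183 (Socs1 3′ flank). In the tagged libraries they were 0.072 (Sh2b3 start), −0.013 (Stat5b start), 0.035 (Stat5a start) and −0.066 (Socs3 start). Lists of unequal length gave 0.068 (Sh2b3 start) and −0.196 (Stat5b start), and percentile ranks gave −0.177 percentile points (Socs3 start). For genotype, the tagged libraries gave −0.131 (Sh2b3 start), 0.057 (distal Cish), −0.055 (Stat5b start), −0.126 (Stat3 exon), −0.044 (Socs1 3′ flank) and 0.023 (Socs1 start). Scores of at least 5 gave −0.068 (Sh2b3 start) and −0.056 (Stat3 intron), lists of unequal length −0.061 (Stat5b start), list length as a covariate 0.032 (Socs1 start), and percentile ranks 0.186 (distal Cish) and 0.273 (Socs1 start) percentile points. Causes were not tested.

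With 1 library left out, age changes ran from −0.011 to 0.108 (Socs3 2.43 kb past the 3′ end), −0.269 to 0.183 (Sh2b3 start), −0.104 to 0.014 (Mapkapk3 start), −0.13 to 0.155 (Stat5b start), −0.073 to 0.109 (Socs3 start) and −0.061 to 0.126 (Socs1 3′ flank). Genotype changes ran from −0.045 to 0.087 (Socs3 2.43 kb past the 3′ end), −0.076 to 0.059 (Jak2 start), −0.087 to 0.031 (Mapkapk3 start), −0.088 to 0.014 (Cish 3′ flank), −0.078 to 0.066 (distal Cish), −0.103 to 0.163 (Stat5b start), −0.107 to 0.008 (Stat5a start), −0.083 to 0.08 (Socs1 start), −0.142 to 0.282 (Sh2b3 start), −0.086 to 0.097 (Socs2 start), −0.06 to 0.124 (Socs1 3′ flank) and −0.042 to 0.157 (Sh2b3 3′ side). Depth is unknown, so a region absent from a list was not detected and need not be closed.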
